A study of Mus musculus with 9 samples.

Results

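Tfcp2l1, Grhl1, Grhl2, Elf3, Ehf and Klf5 are 6 transcription factor genes of epithelial cells. They were taken by name from the genes of the deposited table, which held all 6 of them among 12339 genes in all. Tfcp2l1 was chosen by its log2 difference between tumour cells grown with tissue-resident macrophages and tumour cells grown alone, so that comparison is given here as a description. The libraries came from GFP-positive mouse lung tumour cells (KP-GFP, strain C57BL/6) sorted from spheroids and fell into 3 groups of 3. The groups were tumour cells grown with lung tissue-resident macrophages (TRMs, in places labelled AMs), with bone-marrow monocytes (BM-Mo), and alone. A spheroid started with 2500 tumour cells, to which 5000 TRMs or 5000 monocytes were added in the co-cultures. After 7 days, 32 spheroids of a condition were pooled, dissociated and sorted, and SMART-Seq v4 libraries were made from the sorted cells. The labels do not spell out KP, do not say whether the line was 1 clone, and do not say whether replicates were separate cultures, so p-values measure the spread between these libraries, which may be technical.

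All 6 factors bind DNA and switch genes on or off in cells that line organs and glands. TFCP2L1 and the Grainyhead-like factors GRHL1 and GRHL2 belong to related branches of one family: GRHL2 is known for keeping cell-cell junction genes on, and TFCP2L1 for its roles in ducts of kidney and salivary gland and, in mouse embryonic stem cells, in self-renewal. ELF3 and EHF are ETS factors largely restricted to epithelia, and KLF5 is a zinc-finger factor of proliferating epithelium, including that of the developing lung.

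On the mm10 build, Tfcp2l1 (ENSMUSG00000026380.10) lies at chr1:118627945-118685168 on the plus strand, and Elf3 (ENSMUSG00000003051.13) on the same chromosome at chr1:135253575-135258568 on the minus strand. Grhl1 (ENSMUSG00000020656.16) lies at chr12:24572283-24617391 and Grhl2 (ENSMUSG00000022286.16) at chr15:37233036-37363569, both on the plus strand. Ehf (ENSMUSG00000012350.15) lies at chr2:103263433-103303278 on the minus strand and Klf5 (ENSMUSG00000005148.8) at chr14:99298691-99315036 on the plus strand. All 6 are annotated as protein-coding. Exon bases of Grhl2 are shared with Gm16136 and those of Elf3 with Gm26642, each on the opposite strand, and Tfcp2l1 shares exon bases with Gm23497 on its own strand. Nothing in the labels says that the kit keeps strand, and reads over those shared bases cannot be told apart.

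Promoter windows from RefSeq (GRCm38.p6), running 250 bases before to 50 bases after an annotated start, were matched by symbol for 3 of the 6 genes. They are shown because the 6 genes are themselves factors of the KLF, ETS and Grainyhead families, whose DNA motifs can be looked for in the genes' own promoters. Each is written 5′ to 3′ on the gene's own strand, and capitals mark matches to the motifs searched. The Tfcp2l1 window is chr1:118627695-118627994 (plus strand), the Elf3 window chr1:135258423-135258722 (minus strand), and the first of 2 Grhl1 windows chr12:24572037-24572336 (plus strand).
Tfcp2l1 promoter: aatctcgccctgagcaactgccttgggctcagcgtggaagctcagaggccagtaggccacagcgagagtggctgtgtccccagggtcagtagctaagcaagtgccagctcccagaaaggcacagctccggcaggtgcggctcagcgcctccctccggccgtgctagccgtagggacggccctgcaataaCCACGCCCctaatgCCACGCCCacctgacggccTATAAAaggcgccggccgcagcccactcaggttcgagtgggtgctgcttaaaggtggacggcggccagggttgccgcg
Elf3 promoter: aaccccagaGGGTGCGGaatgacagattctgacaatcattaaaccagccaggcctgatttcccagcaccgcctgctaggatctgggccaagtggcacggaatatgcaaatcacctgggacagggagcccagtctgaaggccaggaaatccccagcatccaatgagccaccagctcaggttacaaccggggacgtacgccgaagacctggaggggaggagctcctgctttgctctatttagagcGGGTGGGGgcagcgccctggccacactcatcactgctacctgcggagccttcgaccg
Grhl1 promoter: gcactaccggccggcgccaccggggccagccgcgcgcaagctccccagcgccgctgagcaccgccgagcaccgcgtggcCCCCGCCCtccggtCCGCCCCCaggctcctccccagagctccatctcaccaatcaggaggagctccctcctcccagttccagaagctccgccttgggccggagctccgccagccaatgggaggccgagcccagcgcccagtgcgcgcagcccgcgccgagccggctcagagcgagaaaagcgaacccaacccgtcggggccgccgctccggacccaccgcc
The motifs searched on both strands were AACCNGTT for Grainyhead factors, CCGGAAG for ETS factors, CCNCNCCC for KLF and SP factors, and TATAAA for a TATA box, the last chosen after the Tfcp2l1 sequence was seen. The Tfcp2l1 window held the KLF and SP letters at -61 to -54 and at -47 to -40 from the start, followed by TATAAA at -28 to -23. In the Elf3 window the KLF and SP letters stood on the opposite strand at -241 to -234 and at -7 to 1, and in the Grhl1 window they stood at -171 to -164 and -157 to -150. The Grainyhead and ETS letters were in none of these 3 windows, no match overlapped another, and the second Grhl1 window held none of the motifs. Of all 32851 windows of the RefSeq table, 49.5% held the KLF and SP letters, 13.6% TATAAA, 8.86% the ETS letters and 2.09% the Grainyhead letters. Of the 12528 windows of genes in the deposited table, 68% held the KLF and SP letters, 7.34% TATAAA, 17.2% the ETS letters and 1.86% the Grainyhead letters, so the KLF and SP matches are common ones. A match is a string of letters and not a measured binding site.

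The libraries held 16001895 to 32771448 reads in genes of the table. All values below are scaled CPM, the reads of a gene divided by a library size that was adjusted between libraries. The third monocyte library stood apart from the other 8 on the second principal component, with a score of 75.9 against -50.3 to 32.9. Of 8 epithelial markers all were in the table, with Krt8 and Krt18 the highest, and their summed level was 15234 to 19092 in TRM co-cultures, 10431 to 16404 in monocyte co-cultures and 15159 to 16976 in cells alone. The epithelial list had 0 members called higher and 1 lower with TRMs, beside 8.15% of all genes called lower. With monocytes it had 0 higher and 3 lower, beside 12.7%. All 8 are also on the list of Grainyhead target genes described below. Of 17 pan-leukocyte and macrophage markers 10 were in the table, with sums of 224 to 368 with TRMs, 194 to 311 with monocytes and 169 to 266 alone. Cd14 and Cd53 were the highest of these, while Ptprc, which encodes the common leukocyte antigen CD45, had 0 reads in 1 monocyte library and at most 4.47 elsewhere. The macrophage receptor gene Mrc1 had 22.4, 39.8 and 36.5 with TRMs and 34.6, 47.8 and 35.2 with monocytes, against 4.98, 5.37 and 5.03 alone. Other genes of this list went the other way: Cd14 averaged 128 with TRMs, 123 with monocytes and 166 alone, and Coro1a 0.678, 0.928 and 1.64. This list had 2 members called higher and 0 lower with TRMs, and 1 higher and 1 lower with monocytes. Alveolar macrophage markers, 6 of 10 in the table and mostly Cd9 and Pparg, summed to 1025 to 1076 with TRMs, 1052 to 1146 with monocytes and 814 to 926 alone. Members of that list differed in direction: Cd9 averaged 863 with TRMs, 900.3 with monocytes and 657 alone, whereas Plet1 averaged 49.7, 44.4 and 94.3 and Siglecf, a defining surface receptor, 0.295, 0.121 and 1.44 in the same order of groups. The list had 1 member called higher and 1 lower with TRMs, and 1 higher and 3 lower with monocytes. Monocyte markers, 4 of 10 in the table, summed to 40.2 to 50.7, 32.8 to 51.2 and 44.7 to 56.0 in the same order of groups, and fibroblast and endothelial markers, 4 of 10, to at most 14.3 in any library. The monocyte sum was mostly Plac8, which averaged 27.5 with TRMs, 23.1 with monocytes and 46.3 alone. The monocyte and macrophage gene F13a1 had 9.67, 17.3 and 13.1 with TRMs and 17.0, 16.0 and 7.21 with monocytes, against 0.825, 0.747 and 1.31 alone, so every co-culture library was above every library of cells alone. Whether leftover myeloid RNA had a part in the differences described here was not tested. In bulk RNA, fewer cells expressing a gene and less of its RNA per cell cannot be told apart.

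Tfcp2l1 RNA was several-fold lower in tumour cells from both co-cultures than in tumour cells alone. It had 46.2, 36.6 and 40.0 scaled CPM in the TRM co-cultures (replicates 1 to 3), 33.1, 24.9 and 43.4 in the monocyte co-cultures, and 204, 153 and 222 in cells alone. Every co-culture library was below every library of cells alone, and the co-cultures overlapped each other. The values rested on 593 to 1032 reads a library in co-cultures and 3367 to 7403 alone. Means were 41.0 ± 4.85 with TRMs, 33.8 ± 9.31 with monocytes and 193 ± 36.2 alone (SD, n = 3 each). The TRM difference from cells alone was -2.22 on the log2 scale (SE 0.21), or 4.67-fold lower. In the monocyte comparison the log2 difference was -2.53 (SE 0.21), or 5.78-fold lower, with a limma adjusted p of 8.28e-06 over all genes tested. That comparison uses the same libraries of cells alone as the one by which Tfcp2l1 was chosen. Between TRM and monocyte co-cultures the log2 difference was 0.31 (95% interval -0.14 to 0.75, limma adjusted p 0.628).

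Among 12326 genes tested, the Tfcp2l1 difference ranked 178 from the lowest with TRMs and 245 with monocytes, and in cells alone the gene ranked 972 by level. Its log2 fold change was -2.25 in the authors' deposited table for TRM co-culture and -2.53 in the authors' deposited table for monocytes, where it ranked 6 of 11081 genes by false discovery rate.

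Grhl2, whose product keeps junction genes active in epithelia, was also lower in monocyte co-cultures. Its values were 76.4, 68.2 and 68.1 in TRM co-cultures, 28.8, 40.7 and 57.9 in monocyte co-cultures, and 94.4, 92.5 and 92.0 in cells alone. The 3 groups did not overlap at all: cells alone were highest and nearly equal, TRM co-cultures came between, and monocyte co-cultures were lowest and most spread. The means were 70.9 ± 4.73, 42.5 ± 14.6 and 93.0 ± 1.27 in that order of groups (SD, n = 3 each). With monocytes Grhl2 fell 2.28-fold relative to cells alone (log2 difference -1.19, SE 0.20, limma adjusted p 0.000965). With TRMs the log2 difference from cells alone was -0.39 (SE 0.20), which was not called across all 9 libraries. It was called when those 2 groups were fitted alone, and the authors' deposited table gives -0.41 for it (false discovery rate 0.0261). TRM co-cultures were 1.73-fold higher than monocyte co-cultures (log2 difference 0.79, 95% interval 0.36 to 1.23), a difference that missed the threshold with limma (adjusted p 0.114). Without the third monocyte library the same difference was 1.05 and passed (limma adjusted p 0.0127), and DESeq2 called it on all libraries (adjusted p 0.0270).

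Grhl1, a paralogue active in epidermis and desmosome gene control, was lower with monocytes. It had 17.7, 17.7 and 13.9 in TRM co-cultures, 11.3, 10.5 and 12.2 in monocyte co-cultures, and 18.4, 18.8 and 18.7 in cells alone. All groups were separate, with cells alone within a narrow range just above the TRM libraries. Relative to cells alone, Grhl1 fell 1.65-fold with monocytes (log2 difference -0.72, SE 0.20, limma adjusted p 0.0148). Without the third library of cells alone that p was 0.0552. The TRM difference from cells alone was -0.19 (SE 0.20), and the TRM co-cultures exceeded the monocyte co-cultures by 0.53 (95% interval 0.11 to 0.95, limma adjusted p 0.287), neither of them called. The ratio of Grhl2 to Grhl1 within a library was 4.31, 3.85 and 4.90 with TRMs, 2.55, 3.88 and 4.76 with monocytes, and 5.13, 4.92 and 4.91 alone.

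The 3 relatives of these genes were lower in mean in both co-cultures, and none was called, where 10.2% of all genes tested rose and 8.15% fell with TRMs, and 14.7% rose and 12.7% fell with monocytes. Grhl3, a skin barrier factor, had 10, 2 and 2 reads in TRM co-cultures, 0, 10 and 0 reads in monocyte co-cultures, and 32, 20 and 30 reads in cells alone. It was thus near the limit of counting in co-cultures, and its monocyte difference had a limma adjusted p of 0.0779, which passed without the second monocyte library (0.0379). Tfcp2 averaged 36.2 ± 6.50 with TRMs, 32.6 ± 5.25 with monocytes and 42.2 ± 2.91 alone (SD, n = 3 each). Ubp1 averaged 57.4 with TRMs, 52.7 with monocytes and 64.4 alone. The limma adjusted p-values of these close relatives of Tfcp2l1 were at least 0.132 against cells alone, with folds of at most 1.31.

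**Figure D1:**
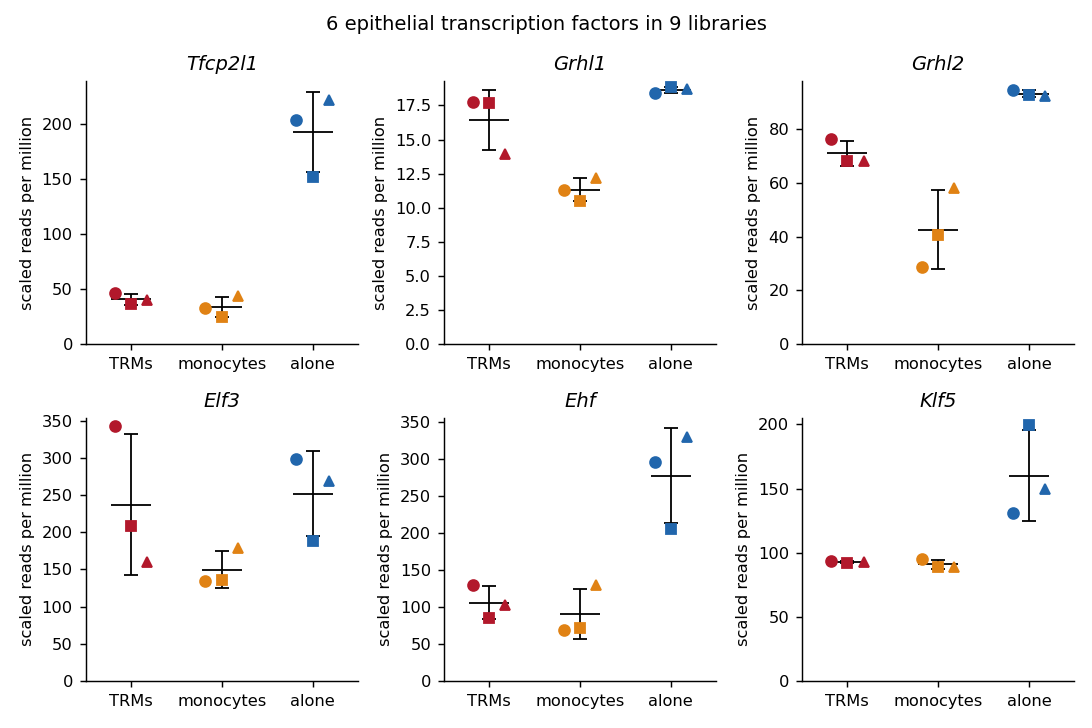
Scaled CPM of the 6 genes in each library (points, shaped by replicate number), by group from left to right TRM co-culture, monocyte co-culture and alone, with the mean (bar) and SD (whiskers, n = 3). Tfcp2l1 and Ehf sit far below the libraries of cells alone in both co-cultures, whereas the Elf3 libraries with TRMs (343, 208 and 160) span those of cells alone (299, 188 and 268).

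Ehf, an ETS factor of glandular and airway epithelium, was the second most reduced of the 6 genes. It had 129.6, 84.7 and 103 in TRM co-cultures, 69.5, 71.6 and 130 in monocyte co-cultures, and 296, 206 and 330.2 in cells alone. No co-culture library reached the lowest library of cells alone, and the third monocyte library was far above the other 2. The means were 106 ± 22.6 with TRMs, 90.4 ± 34.4 with monocytes and 277 ± 64.3 alone (SD, n = 3 each). The TRM difference was -1.38 on the log2 scale (SE 0.25), or 2.61-fold lower than alone. With monocytes Ehf fell 3.14-fold (log2 difference -1.65, SE 0.25, limma adjusted p 0.000361). TRM and monocyte co-cultures overlapped, with a log2 difference of 0.27 (95% interval -0.26 to 0.80, limma adjusted p 0.746).

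Elf3, an ETS factor of differentiating epithelium, was lower with monocytes and overlapped cells alone with TRMs. Its values were 343, 208 and 160 with TRMs, 134, 136 and 178 with monocytes, and 299, 188 and 268 in cells alone. The TRM libraries spanned the whole range of cells alone, while every monocyte library was below it. The TRM difference from cells alone was -0.13 (95% interval -0.66 to 0.40), not called. With monocytes Elf3 fell 1.67-fold (log2 difference -0.74, SE 0.25, limma adjusted p 0.0393), a call close to the threshold. It was lost without a variance trend (0.121), without the second TRM library (0.0532), and without replicate 1 or 2 of the monocyte co-cultures or replicate 1 or 3 of cells alone (0.110 to 0.145). TRM exceeded monocyte co-cultures by 0.60 on the log2 scale (95% interval 0.08 to 1.13, limma adjusted p 0.345).

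Set within each library, Ehf reads were 0.378, 0.408 and 0.643 of Elf3 reads with TRMs and 0.517, 0.528 and 0.730 with monocytes, against 0.990, 1.09 and 1.23 alone. The ratio did not overlap between either co-culture and cells alone, so the RNAs of these 2 ETS factors changed unequally. Of 11 further ETS factor genes 9 were tested. With TRMs 3 rose (Etv4, Ets1 and Elk3) and 2 fell (Elf1 and Ets2), and with monocytes 4 rose, Etv5 besides these, and 3 fell, Elf4 besides these. Etv4, Etv5 and Elf4 are named after their values were seen. The median log2 difference of the 9 was 0.10 with TRMs and 0.21 with monocytes, beside -0.0019 and -0.02 over all genes. Of all genes tested, 10.2% rose and 8.15% fell with TRMs, and 14.7% rose and 12.7% fell with monocytes. Elf1 averaged 54.4 with TRMs, 51.6 with monocytes and 93.1 alone, 1.71-fold and 1.81-fold lower (limma adjusted p 0.00261 and 0.000981). Ets1, better known from lymphoid, endothelial and invasive cells, went the other way, at 209 with TRMs, 269.7 with monocytes and 102 alone, or 2.02-fold and 2.60-fold higher. The call of Ets1 with TRMs was lost without replicate 2 or 3 of the TRM co-cultures or replicate 1 or 3 of cells alone (limma adjusted p 0.0519 to 0.107), and with no variance trend (0.0940). Elk3, a repressor of the ternary complex group, was 1.82-fold and 2.06-fold higher (71.5 with TRMs, 81.8 with monocytes, 39.3 alone). Without the second TRM library 1 ETS factor was called higher with TRMs, and with monocytes the number was 2 without replicate 1 or 2 of the monocyte co-cultures or replicate 1 or 3 of cells alone, under library totals, and with no variance trend.

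Klf5 was lower in both co-cultures by nearly the same amount. Its values were 93.7, 92.0 and 92.7 in TRM co-cultures, 95.2, 89.1 and 88.6 in monocyte co-cultures, and 131, 199.6 and 149.7 in cells alone. The 6 co-culture libraries lay close together, all below cells alone, whose libraries were widely spread. Means were 92.8 ± 0.868 with TRMs, 90.9 ± 3.65 with monocytes and 160.2 ± 35.4 alone (SD, n = 3 each). The TRM difference was -0.77 (SE 0.15), or 1.70-fold lower than alone. With monocytes Klf5 fell 1.73-fold (log2 difference -0.79, SE 0.15, limma adjusted p 0.00196). Between the co-cultures the log2 difference was 0.03 (95% interval -0.30 to 0.36, limma adjusted p 0.972), and its sign turned to -0.0061 when libraries were scaled by their totals alone.

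The read ratio of Tfcp2l1 to Klf5 within a library was 0.493, 0.398 and 0.432 with TRMs and 0.348, 0.279 and 0.490 with monocytes, against 1.55, 0.764 and 1.49 alone. Of 16 further KLF and SP genes 12 were tested, and 4 fell with each co-culture (Klf3, Klf6, Klf9 and Klf11) while 0 rose. The list median was -0.27 with TRMs and -0.44 with monocytes, beside -0.0019 and -0.02 over all genes. Over all genes tested, 8.15% were called lower with TRMs and 12.7% with monocytes. Klf11, a repressor linked to TGF-beta signalling, averaged 73.8 with TRMs, 85.2 with monocytes and 149.9 alone, 2.04-fold and 1.79-fold lower (limma adjusted p 0.00143 and 0.00367). Klf6, a widely expressed early-response factor, averaged 1289 with TRMs, 1174 with monocytes and 2058 alone. Without the second TRM library the calls with TRMs came to 1, where Klf3, Klf6 and Klf9 just missed (limma adjusted p at most 0.0516).

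Counted over the 6 genes, 3 were called lower and 0 higher with TRMs (Tfcp2l1, Ehf and Klf5), where 8.15% of all genes tested were called lower. Since Tfcp2l1 was chosen by this comparison and the list was drawn up with its results known, nothing is read from that count. Libraries did not overlap for 5 of the 6, all lower with TRMs, beside 18.5% of all genes. With monocytes all 6 were called lower with limma, beside 12.7% of all genes, and all 6 did not overlap, beside 19.2%. The monocyte comparison uses the same libraries of cells alone, and the list was drawn up with earlier results of these data known. Nothing is therefore read from the counts with either co-culture. The median log2 difference of the 6 was -0.58 with TRMs and -0.99 with monocytes. In the authors' deposited table for monocytes, Elf3 had a log2 fold change of -0.78 (false discovery rate 0.00171) and Grhl1 -0.74 (0.0565). Scaling by library totals changed the balance of calls over all genes with TRMs to 1003 higher and 1302 lower, beside 1257 higher and 1005 lower as reported.

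TRM co-cultures set against monocyte co-cultures gave no called member with limma or edgeR and 1 with DESeq2 (Grhl2), where limma called 0.398% of all genes tested. At an unadjusted p under 0.05, limma gave 3 (Grhl1, Grhl2 and Elf3), all higher with TRMs, beside 1437 of the 12326 genes tested in either direction. Libraries did not overlap for 2 of the 6, Grhl1 and Grhl2, both higher with TRMs, beside 7.55% of all genes. As the list was drawn up with earlier results of these data known, nothing is read from these counts either. Scaled by library totals, the calls over all genes were 35 higher and 16 lower, beside 40 higher and 9 lower as reported. The summed level of the 6 genes was 707, 507 and 478 with TRMs, 372, 372 and 511 with monocytes, and 1042, 858 and 1081 alone. Within groups, the first TRM library was the highest TRM library for each of the 6 genes, though by little for Grhl1 and Klf5, and the third monocyte library the highest of its group for every member but Klf5.

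**Figure D2:**
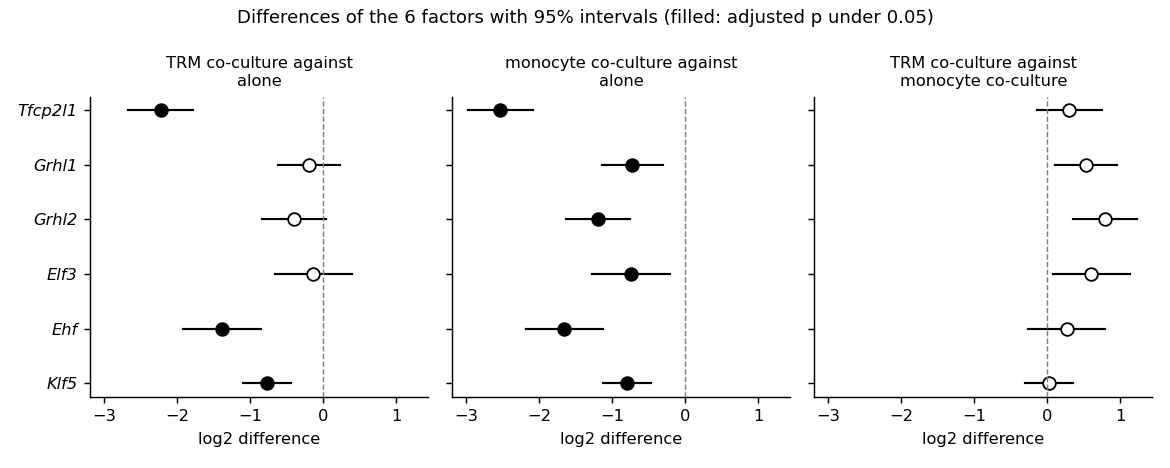
Log2 differences of the 6 genes with 95% intervals from limma for each co-culture set against cells alone and for the TRM against the monocyte co-culture. Filled points passed an adjusted p of 0.05 over all genes. Tfcp2l1 has the lowest differences from cells alone (-2.22 with TRMs and -2.53 with monocytes), and every point of the TRM-against-monocyte comparison lies at or above 0 without passing.

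Levels can be compared between genes after division by transcript length. Per kilobase of the longest annotated transcript, Elf3 was the highest in every group, at 113 with TRMs, 71.3 with monocytes and 120.2 alone, and its libraries overlapped with those of no other member. In cells alone the order of level per kilobase continued with Ehf (62.0), Klf5 (47.8), Tfcp2l1 (20.8), Grhl2 (18.8) and Grhl1 (5.38), and the libraries of Ehf and Klf5, and of Tfcp2l1 and Grhl2, overlapped. In TRM co-cultures it continued with Klf5 (27.7), Ehf (23.7), Grhl2 (14.3), Grhl1 (4.74) and Tfcp2l1 (4.42). The libraries of Klf5 and Ehf overlapped there, and so did those of Grhl1 and Tfcp2l1. With monocytes the order was Klf5 (27.1), Ehf (20.2), Grhl2 (8.59), Tfcp2l1 (3.65) and Grhl1 (3.27), with the same pairs overlapping. Tfcp2l1 thus stood beside Grhl2 in cells alone and beside Grhl1 in both co-cultures. Its longest transcript is 9269 bases, the longest of the 6, so this scale lowers it most, and the transcript in use was not measured.

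**Figure D3:**
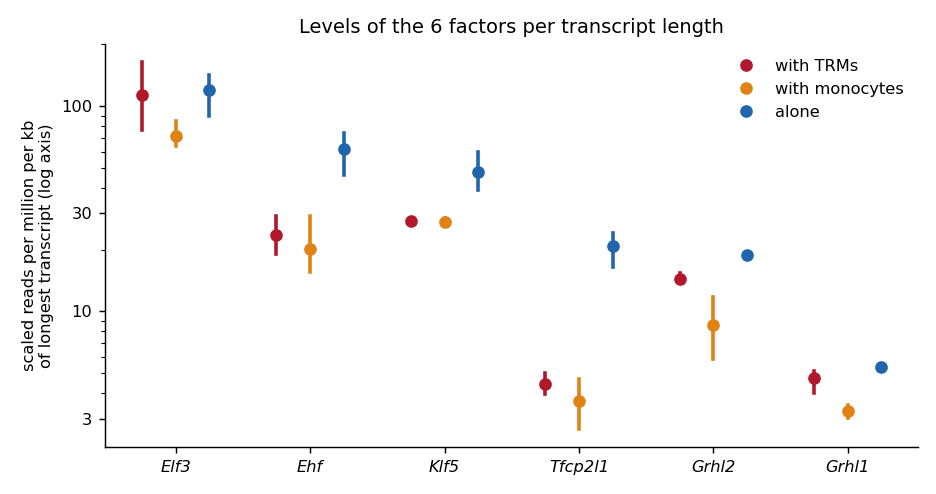
Scaled CPM per kilobase of the longest transcript for the 6 genes on a log axis, by group. Elf3 is highest throughout (113 with TRMs, 71.3 with monocytes, 120.2 alone), and Tfcp2l1 is at 4.42 and 3.65 in the co-cultures against 20.8 alone.

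Genes with the most similar pattern were found by the root mean square difference of log2 values centred on each gene's mean, over the 9 libraries. Among the genes closest to Tfcp2l1 were Exph5 at 0.20, which encodes an effector of Rab27 in vesicle traffic, and the zinc transporter gene Slc39a8 at 0.23, where the median over genes was 1.21. Exph5 had 13.05, 10.2 and 13.3 with TRMs, 11.3, 6.18 and 14.8 with monocytes, and 76.9, 57.5 and 76.8 alone. Slc39a8 had 22.9, 15.8 and 15.8 with TRMs, 14.7, 16.4 and 27.5 with monocytes, and 108.5, 72.3 and 103 alone. In each, as in Tfcp2l1, the second library of cells alone was the lowest of its group and the third monocyte library the highest. Both genes were picked by these same 9 libraries, so a shared order of libraries comes with the choice. The nearest genes to the others were Hdac11 for Grhl1 (0.11), the tissue factor gene F3 for Grhl2 (0.13), the membrane protease gene St14 for Elf3 (0.12), Gca for Ehf (0.12) and Phf3 for Klf5 (0.11). Among the 6 themselves, Grhl1 and Elf3 were the closest pair (0.27), Tfcp2l1 was closest to Ehf (0.43), and Tfcp2l1 and Elf3 were the farthest apart (0.96).

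Epithelial genes known as targets of Grainyhead factors, junction, protease and keratin genes among them, were mostly lower with monocytes. All 28 on the list were tested. Among all genes tested 8.15% fell and 10.2% rose with TRMs, and 12.7% fell and 14.7% rose with monocytes. Of the 28, 10 fell and 1 (Lad1) rose with TRMs, and 20 fell and 1 (Arhgef19) rose with monocytes. List medians were -0.48 and -0.998, beside -0.0019 and -0.02 over all genes. The keratin genes Krt8, Krt18, Krt7 and Krt19, and Epcam, were called with neither co-culture by limma on all 9 libraries. Their log2 differences with TRMs were 0.05, -0.05, 0.46, 0.46 and 0.15 in that order. With monocytes they were -0.21, -0.23, -0.40, -0.26 and -0.59. These keratin genes and Epcam are set out here after their values were seen. The count with TRMs was 6 with no variance trend, and also without replicate 2 or 3 of the TRM co-cultures or replicate 1 or 3 of cells alone, and Lad1 and Arhgef19 are named after their values were seen. The Arhgef19 call was lost with edgeR and without any 1 of 6 of the 9 libraries. Dsg2, a desmosomal cadherin, averaged 95.7 ± 6.19 with TRMs, 52.7 ± 4.45 with monocytes and 198 ± 10.8 alone (SD, n = 3 each), or 2.07-fold and 3.77-fold lower than alone. With all 9 libraries limma called it alone of the list between the co-cultures, higher with TRMs by 0.86 on the log2 scale (limma adjusted p 0.0148), and the call was lost without any 1 TRM library (0.0507 to 0.0872). DESeq2 called 6 genes of the list higher with TRMs than with monocytes, and limma called 10 without the third monocyte library. The tight junction gene Ocln averaged 97.8 with TRMs, 62.4 with monocytes and 231 alone, 2.37-fold and 3.93-fold lower. Cgn, which encodes the junction protein cingulin, was 2.34-fold and 2.61-fold lower (96.2 with TRMs, 86.6 with monocytes, 226 alone). Dsp, for desmoplakin, fell 2.58-fold with monocytes (39.7, against 102 alone), while with TRMs it was at 70.2 and near the threshold (limma adjusted p 0.0608). With TRMs Dsp was called lower by DESeq2 (0.0371), under library totals, with those 2 groups fitted alone, and without TRM replicate 1, monocyte replicate 3 or replicate 2 of cells alone (limma adjusted p 0.0194 to 0.0438).

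**Figure D4:**
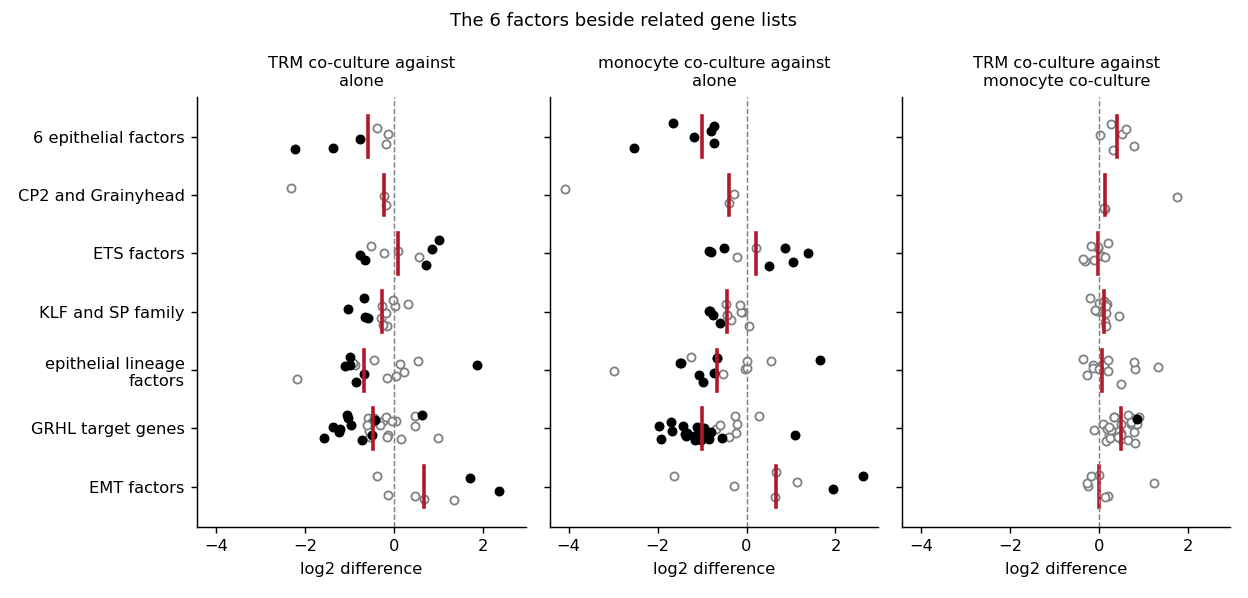
Log2 differences of the tested genes of each list (points), for each co-culture set against cells alone and for the TRM against the monocyte co-culture. Filled points are called genes, and the red line marks the list median. Against cells alone, 10 of the 28 Grainyhead target genes were called lower with TRMs and 20 with monocytes, beside 8.15% and 12.7% of all genes. Factors of epithelial-mesenchymal transition had 2 called higher and 0 lower in each co-culture against cells alone, beside 10.2% and 14.7% of all genes called higher.

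Of 20 other epithelial lineage factor genes 15 were tested. With TRMs 5 fell, Foxa1, Foxa2 and Hnf4a among them, and 1 rose (Trp63), and with monocytes Ovol1 fell besides these 5 and Trp63 rose. The list medians were -0.69 and -0.67, beside -0.0019 and -0.02 over all genes. Among all genes tested, 8.15% fell and 10.2% rose with TRMs, and 12.7% fell and 14.7% rose with monocytes. Foxa1, a pioneer factor of lung and gut epithelium, averaged 190.2 with TRMs, 193 with monocytes and 308 alone, 1.61-fold and 1.59-fold lower. Trp63, the basal cell factor, averaged 16.7 with TRMs, 14.3 with monocytes and 4.54 alone, 3.65-fold and 3.15-fold higher. Foxa2, Hnf4a and Ovol1 are named after their values were seen. The calls lower with TRMs numbered 3 without replicate 2 or 3 of the TRM co-cultures or replicate 1 or 3 of cells alone, and those with monocytes 3 without the third library of cells alone or with no variance trend.

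Of 10 factors that drive epithelial-mesenchymal transition, among them repressors of epithelial genes, 7 were tested. Zeb1 and Snai1 rose in both co-cultures while 0 fell, with a list median of 0.66 in each. Of all genes tested, 10.2% rose with TRMs and 14.7% with monocytes. Zeb1 averaged 39.7 ± 16.0 with TRMs, 45.7 ± 14.7 with monocytes and 12.5 ± 5.61 alone (SD, n = 3 each), 3.26-fold and 3.85-fold higher (limma adjusted p 0.00928 and 0.00302). Snai1 averaged 4.28 with TRMs, 5.47 with monocytes and 0.841 alone, 5.14-fold and 6.16-fold higher, at a low level. Zeb2 (15.8, 13.5 and 6.95) and Snai2 (14.1, 14.3 and 11.4) were not called, in the same order of groups. DESeq2 called Zeb2 higher with TRMs (adjusted p 0.0372), and so did limma without TRM replicate 1 (0.0409) or monocyte replicate 3 (0.0452). Without the second library of cells alone 4 of the 7 were called higher in each comparison. With no variance trend the Zeb1 call with TRMs was lost (limma adjusted p 0.0591), which left 1 called. Zeb2 is also expressed by myeloid cells. The Mrc1 values given above were higher in the same groups and the Cd14 averages lower, and the part of such RNA here was not tested.

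Genes tied to Tfcp2l1 elsewhere did not form a single pattern. Of 10 genes that work with it in mouse embryonic stem cells only 2 were tested, and with limma neither was called: Stat3 averaged 263 with TRMs, 235 with monocytes and 219.8 alone, and Klf4 121, 126 and 136 in the same order, with unadjusted p-values of at least 0.129 against cells alone. Of 12 genes of kidney and gland ducts 6 were tested. The water channel gene Aqp3 rose 5.02-fold with TRMs and 5.29-fold with monocytes (22.6 with TRMs, 23.7 with monocytes and 4.45 alone), and Aqp5 rose 1.53-fold and 2.26-fold (64.5 with TRMs, 94.99 with monocytes and 42.0 alone). Scnn1a, a subunit of the epithelial sodium channel, fell 2.76-fold and 3.27-fold (7.12 with TRMs, 6.23 with monocytes and 19.7 alone). Notch1 fell 1.85-fold with monocytes (28.3, against 52.8 alone, limma adjusted p 0.0116) and had 40.3 with TRMs, not called against cells alone. The Notch1 call was lost without replicate 3 of cells alone (0.0676 by limma), and the Aqp5 call with TRMs without replicate 3 of those co-cultures (0.0567).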

How the data were processed

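RNA-seq values were analysed for 9 libraries in 3 groups of 3, grouped and numbered by their labels. Per the submitters' processing notes, reads were handled with STAR 2.5 and edgeR on the mm10 build. The read counter and gene models are, for this study, not given in the sources used here. A table of values that the authors deposited holds a normalised signal per gene: a whole number of reads plus 0.5, over a scaled library size, as CPM. All 111051 values (100%) came out as whole reads within 1e-06 of a read. The authors' deposited comparison tables hold log2 fold changes, a likelihood ratio score, p-values and false discovery rates, per the file headers, and were used beside the values computed here only where named.

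Tools were limma 3.58.1, DESeq2 1.42.0 and edgeR 4.0.16 under R 4.3.3, and Python 3.11.15. Low genes were filtered on recovered reads (filterByExpr, minimum count 10, minimum total 15), which took out 13 genes and left 12326, among them all 6 members. Log2 values of the deposited signal, with no further pseudocount, were fitted with limma (variance trend, group means, all 9 libraries, 6 residual degrees of freedom). Tests were two-sided, with Benjamini-Hochberg adjustment over all genes tested, and a call is an adjusted p under 0.05. Fold changes are on this log2 scale, in which the added 0.5 read understates changes of low genes, and standard errors and 95% intervals are limma's. The main fit was also run on simulated data, the outcome of which is not reported here and is not used as support. The members and gene lists were chosen with earlier results of these data known. Named list genes are up to 4 a list with the smallest unadjusted p in any comparison, and those most like a member are the nearest 3 for Tfcp2l1 and the nearest 1 for the others; a few genes that these rules pick are not reported here. Gene bounds and lengths came from an annotation of the mm10 build. Alternatives were edgeR and DESeq2 on recovered reads, other filters, scaling and pseudocount, no variance trend, a fit of the compared groups alone, a replicate block, and each library left out. Read totals limit precision by counting error only.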

Additional observations from a re-analysis of the deposited data

How the results depend on the processing

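With monocytes, Tfcp2l1, Grhl2, Ehf and Klf5 stayed lower and called under all alternatives. With monocytes 4 to 6 members were called when 1 library was left out. Over all genes, leaving out 1 library gave 1217 to 2594 calls with TRMs (lowest without the second TRM library) and 2240 to 3530 with monocytes (lowest without the third library of cells alone), beside 2262 and 3366. TRM against monocyte co-culture was the least stable, with 49 calls as reported, 329 with DESeq2, 75 after adding 1 CPM, 0 without a variance trend, and 0 to 134 with 1 library left out (0 without the second TRM library, 134 without the third monocyte library). Members called there were 1 with DESeq2 and 0 to 1 with 1 library left out. The cause of these differences was not tested. Signs turned for differences near 0: Elf3 with TRMs (-0.44 to 0.11 with 1 library left out), Stat3 with monocytes (-0.0526 to 0.188), Klf4 with monocytes (-0.313 to 0.0179), and Klf5 between co-cultures (-0.0061 under library totals).

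Replicate numbers were not used to pair the samples in the main fit. Correlations of deviations from group means ran from -0.0246 to 0.429 for libraries of the same number. For libraries of different numbers they ran from -0.401 to 0.265, and most of these were negative. Of the same-number pairs, only the second monocyte library with the second library of cells alone was negative. These overlapping ranges do not settle whether the numbers pair the samples. With a replicate block, TRM against monocyte co-culture gave 79 calls, and no call of a member changed. The block gave 1320 higher and 1072 lower with TRMs, beside 1257 and 1005 in the main fit. With monocytes it gave 1846 higher and 1665 lower, beside 1806 and 1560. Of the other named genes, the block added calls of Dsp lower with TRMs (limma adjusted p 0.0409) and of Zeb2 higher with TRMs (0.0223) and with monocytes (0.0371). The table holds no gene with fewer than 91 reads in all, so weakly expressed factors were not analysed here.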
